A study of Rattus norvegicus with 6 samples.

Results

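Platelet and megakaryocyte genes were examined in bone cells that had attached to osteopontin (OPN) or to prothrombin (PT). The set was fixed by gene symbol and holds 9 genes: the surface receptors Selp, Gp1ba, Gp9, Gp5 and Itga2b, the granule chemokines Pf4 and Ppbp, and the transcription factors Nfe2 and Gfi1b. A row carrying the symbol alone was found for 8 of the 9, out of 14506 genes named this way in the table. Itga2b, which encodes the integrin chain that pairs with the Itgb3 product in the fibrinogen receptor of platelets, had no such row and was not analysed here. Each of the 8 genes had 1 row.

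The cells came out of long bones of newborn rats (Sprague Dawley, 2 to 5 days old) and adhered in plates coated with either protein. The OPN group comprised 3 arrays (replicates 2, 3 and 4) of cells held by osteopontin from bovine milk, an acidic phosphoprotein of bone matrix. The PT group comprised 3 arrays (replicates 1, 2 and 4) of cells held by mouse prothrombin, the precursor of the clotting protease thrombin. No gene was altered and no drug was given in either group, and the labels name no separate animals or preparations behind the arrays, so each p-value rests on a spread between samples that may be technical.

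Platelets are shed by megakaryocytes, the large polyploid cells of the marrow. What is known of these genes comes mainly from human and mouse. GATA, ETS and RUNX factors, with the NF-E2 complex, switch on the genes for adhesion receptors and for the proteins packed into alpha granules as megakaryocytes mature. Megakaryocytes share a precursor and several of these factors with red cell precursors, and newborn long bone holds marrow rich in both. The genes therefore fall into 2 kinds here, products of late megakaryocytes and platelets on one side, and factors that erythroid cells also express on the other.

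The RNA came from mixed cells. Affymetrix Rat Gene 1.0 ST arrays gave each gene a linear signal in units of PLIER, a method that summarises the probes of a probe set. Array medians lay between 207.8 and 231.4 units, correlations over all 29215 rows were at least 0.988 within a coating and at most 0.979 between coatings, and detection above background is not known for any row. Osteoblast markers summed to 63163 to 70947 units on OPN and 11648 to 12530 on PT. By the test given below, 12 of 12 were higher on OPN, against 7.62% of all named genes (1.12% were lower). Osteoclast markers summed to 28269 to 31766 units on OPN and 10842 to 13053 on PT, with 6 of 8 higher. Car2, which was not called, gave most of that PT sum (7659.8 to 9646.1 units, against 7312.5 to 8105.9 on OPN). Of 13 macrophage markers 9 were lower on OPN (sums of 10480 to 11206 units on OPN and 14631 to 15365 on PT). In such bulk RNA, fewer cells of a type and less RNA per cell cannot be told apart.

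The 6 measured surface and granule genes rose on OPN, by 1.47-fold to 2.20-fold, while neither transcription factor gene passed the test. Differences are OPN minus PT on the scale of log2(signal + 16), which understates the change of dim rows, and a gene is called when its p in limma's test is below 0.05 after Benjamini-Hochberg adjustment across the 29215 rows. By that rule 5.05% of all rows were higher on OPN and 0.770% lower. Higher rows thus made up 86.8% of the calls, against 68.1% with equal array medians and 64.6% with quantile normalisation. The 6 genes had a median log2 difference of 0.72, against 0.03 over all rows. In each of the 6 genes, every OPN array lay above every PT array, an arrangement seen in 16.3% of all rows.

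**Figure D1:**
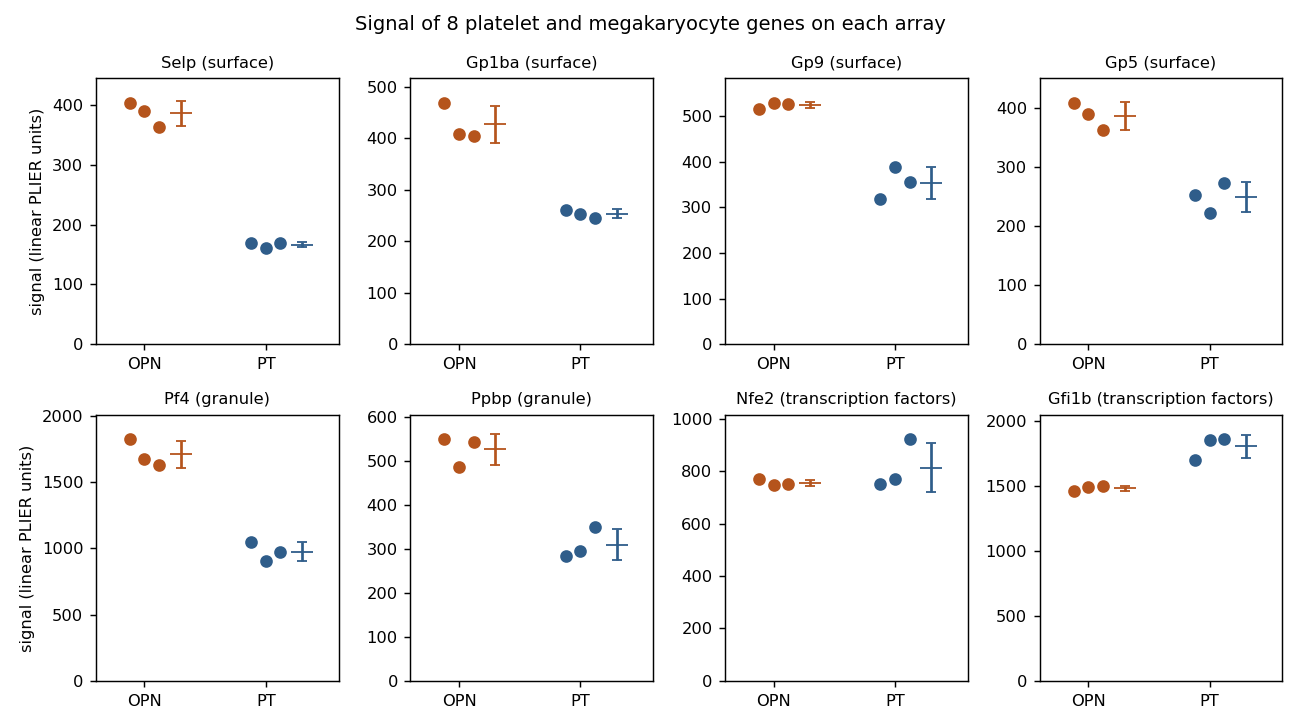
Linear PLIER signal of the 8 measured genes on each array, with OPN left of PT in each panel. Points are the 3 arrays of a coating in order of replicate number, and the bar beside them is the mean with its SD. The groups are apart in Selp, Gp1ba, Gp9, Gp5, Pf4 and Ppbp with OPN higher, apart in Gfi1b with PT higher, and overlapping in Nfe2.

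Selp encodes P-selectin, which is stored in the membrane of platelet alpha granules and of endothelial storage bodies and binds leukocytes once it reaches the surface. Its signal was 404.6, 390.4 and 364.5 units on OPN replicates 2, 3 and 4, against 169.1, 161.4 and 169.3 units on PT replicates 1, 2 and 4. The lowest OPN array lay far above the highest PT array. The difference was 2.20-fold (log2 difference 1.14, SE 0.07, adjusted p = 2.31e-05 in limma's test), and the row ranked 153rd of all rows by p. It had the largest difference of the 8 genes, with a 95% interval of 0.98 to 1.30.

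Gp1ba, Gp9 and Gp5 encode 3 of the 4 chains of the GPIb-IX-V complex, with which platelets hold on to von Willebrand factor in a damaged vessel wall. Gp1bb, the gene of the remaining chain, and Vwf, the gene of the ligand, were not analysed here. All 3 measured chains rose.

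Gp1ba, the chain that contacts von Willebrand factor, had 469.4, 407.5 and 403.9 units on OPN and 261.7, 253.9 and 245.4 units on PT. OPN replicate 2 stood above the other OPN arrays, and the coatings did not overlap. The log2 difference was 0.71 (SE 0.08, adjusted p = 0.000926). In the GRCr8 gene table Gp1ba overlaps Chrne, Slc25a11 and a ribosomal pseudogene, and the rows of the first 2 did not pass (log2 differences -0.10 and -0.04, adjusted p = 0.552 and 0.844).

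Gp9, the small chain needed to bring the complex to the surface, had 516.0, 529.2 and 527.0 units on OPN and 317.7, 388.1 and 354.9 units on PT. The OPN arrays lay close together, and the PT arrays were more spread. The log2 difference was 0.55 (SE 0.08, adjusted p = 0.00495). Gp5, the chain that thrombin cleaves, had 409.6, 389.7 and 362.4 units on OPN and 252.7, 223.2 and 273.8 units on PT. Its coatings were also apart, with a log2 difference of 0.60 (SE 0.09, adjusted p = 0.00458). The 95% intervals of the 3 chains overlapped each other (0.53 to 0.90 for Gp1ba, 0.36 to 0.74 for Gp9, 0.40 to 0.81 for Gp5).

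The stretch around the start of these genes is shown because the surface and granule genes moved together and known regulators of the lineage read short motifs there. Gfi1b, which lay lower on OPN, is given beside them. RefSeq's promoter table for GRCr8 held 6 of the 9 genes, each from 250 bases before the start to 50 bases from it on. Below are Gp1ba (chr10:55851309-55851608, plus strand), Gp9 (chr4:121792592-121792891, plus strand), Gp5 (chr11:83948257-83948556, plus strand), Ppbp (chr14:17587250-17587549, minus strand) and Gfi1b (chr3:32350852-32351151, minus strand). Capitals mark GATAA, a core bound by GATA factors, or its reverse complement TTATC.
Gp1ba: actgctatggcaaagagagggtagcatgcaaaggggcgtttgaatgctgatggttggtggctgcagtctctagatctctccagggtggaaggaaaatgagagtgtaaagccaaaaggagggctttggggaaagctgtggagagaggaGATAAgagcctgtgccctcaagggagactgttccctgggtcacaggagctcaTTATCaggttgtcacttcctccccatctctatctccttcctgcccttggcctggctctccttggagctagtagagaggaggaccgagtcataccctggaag
Gp9: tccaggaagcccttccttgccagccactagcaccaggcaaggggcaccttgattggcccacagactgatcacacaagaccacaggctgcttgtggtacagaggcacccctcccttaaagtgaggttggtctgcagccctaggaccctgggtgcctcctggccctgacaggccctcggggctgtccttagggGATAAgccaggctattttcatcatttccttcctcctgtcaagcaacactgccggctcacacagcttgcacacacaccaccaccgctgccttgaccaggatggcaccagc
Gp5: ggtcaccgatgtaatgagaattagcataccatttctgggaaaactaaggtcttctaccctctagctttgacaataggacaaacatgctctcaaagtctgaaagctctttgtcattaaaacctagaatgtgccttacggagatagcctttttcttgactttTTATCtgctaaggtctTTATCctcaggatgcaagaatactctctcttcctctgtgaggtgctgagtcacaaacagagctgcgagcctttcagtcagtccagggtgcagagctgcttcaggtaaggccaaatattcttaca
Ppbp: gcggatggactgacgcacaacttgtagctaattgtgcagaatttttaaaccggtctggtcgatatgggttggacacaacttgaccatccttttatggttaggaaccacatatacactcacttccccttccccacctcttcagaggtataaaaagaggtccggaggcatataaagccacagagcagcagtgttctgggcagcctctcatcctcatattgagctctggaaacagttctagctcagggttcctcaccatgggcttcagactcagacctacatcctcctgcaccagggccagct
Gfi1b: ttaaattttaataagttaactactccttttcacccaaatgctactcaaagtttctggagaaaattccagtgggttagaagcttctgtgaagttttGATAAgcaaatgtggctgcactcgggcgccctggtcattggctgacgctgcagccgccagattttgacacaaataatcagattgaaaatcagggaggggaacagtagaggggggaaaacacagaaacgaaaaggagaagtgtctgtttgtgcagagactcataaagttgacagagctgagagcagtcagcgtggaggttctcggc

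The letters GATAA or TTATC stood in 5 of the 6 windows, Itga2b included, against 26.5% of the 33469 promoters in the table. The matches began 103 and 51 bases before the start of Gp1ba, 59 bases before that of Gp9, 90 and 74 bases before that of Gp5 and 155 bases before that of Gfi1b, while the Ppbp window held none. A match was therefore present both in surface genes that rose on OPN and in Gfi1b, which lay lower there. The 3 other motifs were searched on both strands. GGAA, the ETS core, was in all 6 windows and in 95.8% of promoters. TGAGTCA, read by NF-E2 and AP-1 factors, was in Gp5 only, 29 bases before the start (4.63% of promoters), and TGTGGT, a RUNX core, was in Gp9, Itga2b and Ppbp (17.3% of promoters). In Ppbp 1 pair of matches, of GGAA and TGTGGT, shared a base. A match describes letters in a window and is not a measured site.

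The granule genes rose like the receptors. Pf4 and Ppbp encode CXC chemokines that platelets release from alpha granules, and the 2 genes are next to each other in GRCr8. Pf4, platelet factor 4, had 1822.6, 1674.3 and 1628.0 units on OPN and 1047.5, 902.6 and 974.5 units on PT. The lowest OPN array stood well above the highest PT array. The OPN arrays averaged 1708 ± 102 units and the PT arrays 974.9 ± 72.4 units (SD, n = 3 each), a 1.74-fold difference (log2 difference 0.80, SE 0.08, adjusted p = 0.000548 in limma's test).

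Ppbp, the precursor of a chemokine that draws neutrophils, had 548.5, 484.7 and 543.2 units on OPN and 283.3, 295.1 and 350.4 units on PT. OPN replicate 3 was the lowest of its coating and PT replicate 4 the highest of its own, yet the groups stayed apart. The log2 difference was 0.74 (SE 0.10, adjusted p = 0.00213), and its 95% interval of 0.52 to 0.96 overlapped that of its neighbour Pf4 (0.61 to 0.99).

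The transcription factor genes did not share this pattern. Gfi1b encodes a zinc finger repressor needed for both megakaryocytes and red cell precursors in mouse. Its signal was 1458.0, 1489.7 and 1496.5 units on OPN, against 1701.6, 1852.9 and 1859.2 units on PT. All OPN arrays lay below all PT arrays, an arrangement seen in 7.40% of all rows. The log2 difference was -0.28 (SE 0.07, 95% interval -0.44 to -0.12) with an adjusted p of 0.0531, so the gene did not pass. It was called lower without PT replicate 1 (adjusted p = 0.0486), with dim rows removed, a larger offset or a trended prior (adjusted p = 0.0119 to 0.0219), and also once array medians were made equal (adjusted p = 0.0355) or quantiles were (adjusted p = 0.0274).

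Nfe2 encodes the large subunit of NF-E2, the factor that drives platelet release in mouse, and is also made in red cell and granulocyte precursors. It had 769.0, 746.0 and 749.6 units on OPN and 749.3, 770.3 and 921.6 units on PT. The groups overlapped, and PT replicate 4 stood far above the other arrays. The log2 difference was -0.10 (SE 0.09, 95% interval -0.30 to 0.10, adjusted p = 0.656), and without PT replicate 4 it was -0.01. Of the pair, 0 were called lower by limma's test and 1, Gfi1b, had an unadjusted p below 0.05.

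**Figure D2:**
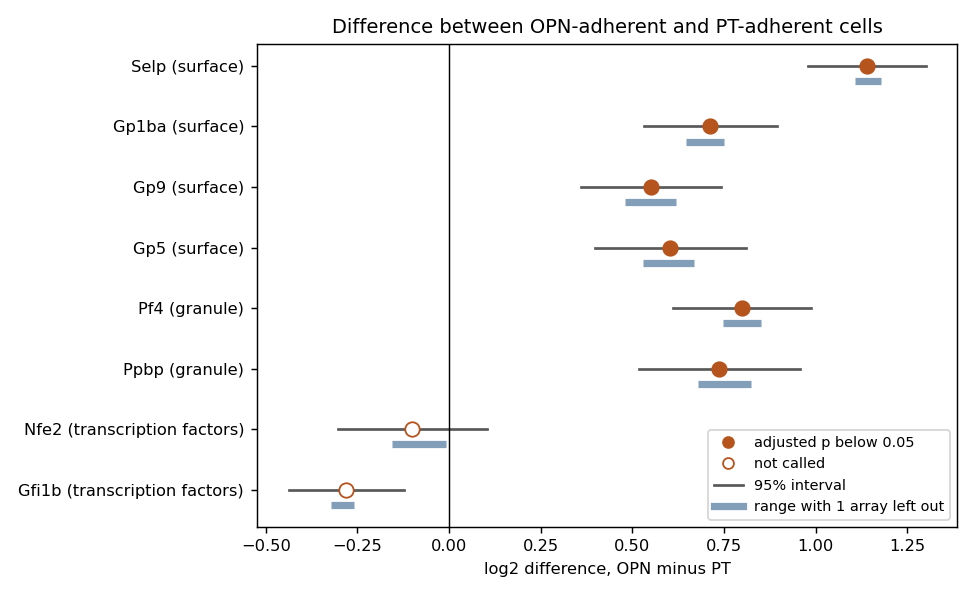
Log2 difference, OPN minus PT, of log2(signal + 16) for the 8 genes. Points give the estimate, filled where the adjusted p is below 0.05, thin lines the 95% interval and thick lines the range when each array was left out in turn. The 6 surface and granule genes lie between 0.55 and 1.14, and Nfe2 (-0.10) and Gfi1b (-0.28) lie below 0.

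The 2 kinds of gene were set against each other within each array. Signals were centred per gene on the log2 scale and averaged, which by itself gives the 2 coatings opposite signs, so the distance between coatings is what carries information. The 6 surface and granule genes averaged 0.45, 0.35 and 0.34 on OPN replicates 2, 3 and 4, and -0.39, -0.42 and -0.33 on PT replicates 1, 2 and 4. Nfe2 and Gfi1b averaged -0.09, -0.10 and -0.09 on OPN and 0.00, 0.08 and 0.21 on PT. The first mean minus the second was 0.47 ± 0.06 on OPN and -0.47 ± 0.08 on PT (SD over 3 arrays), which is 0.95 apart. This gap is given without a p because the genes were chosen with earlier results known. A step that shifts a whole array moves both means alike and leaves the gap as it is, and it was also 0.95 with equal array medians and 0.91 with quantile normalisation.

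Within the OPN group, replicate 2 gave the highest signal of 5 of the 6 surface and granule genes, Gp9 being the exception. That array also had the highest median of all rows, 231.4 units. Within the PT group the highest array was replicate 4 for 3 genes, replicate 1 for 2 and replicate 2 for 1. The replicate SD of the 6 genes was 1.35% to 8.62% of the mean on OPN and 2.70% to 11.6% on PT.

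Likeness was measured as the root mean square distance between centred log2 profiles over the 6 arrays. Among the 8 genes the closest pair was Gp1ba and Pf4 (0.073) and the farthest Selp and Gfi1b (0.71). Nfe2 and Gfi1b were 0.12 apart, and each was nearer to the other than to any surface or granule gene. Outside the set, the 5 named genes closest to Pf4 were Fap (0.031), Gucy1a1 (0.046), Ltbp3 (0.046), Gng11 (0.047) and Arl1 (0.047). Fap encodes a protease of activated fibroblasts, and Gucy1a1 a chain of the nitric oxide receptor of platelets and smooth muscle. The 5 closest to Gfi1b were Rhag (0.018), a red cell membrane protein, Ly86 (0.020), Hebp1 (0.026), Ssna1 (0.027) and the DNA replication gene Mcm5 (0.027). With 6 arrays in 2 groups, the profiles share the difference between coatings.

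Other platelet receptors were mixed. With 1 row per named gene, 7.62% of all genes were called higher on OPN and 1.12% lower. Between 5046 and 5183 of the 29215 rows had an unadjusted p below 0.05 in limma's test, both directions together. That number of rows is also the background for the unadjusted counts of the lists below. Of 20 receptor genes 8 rose and none fell (median log2 difference 0.32), and at an unadjusted p below 0.05 limma had 13 higher and 1 lower. The highest were Itgb3 (1.74), whose product pairs with that of Itga2b on platelets and is abundant on osteoclasts, and the tetraspanin gene Cd9 (1.20), which many cell types express. Cd226 (0.78), an adhesion receptor of platelets and lymphocytes, P2rx1 (0.38), an ATP-gated channel, and F2rl2 (0.61), a thrombin receptor, rose too. F2rl2 was not called without OPN replicate 2, 3 or 4 (adjusted p = 0.0617, 0.0520 and 0.0550), nor P2rx1 without OPN replicate 2 or 3 (adjusted p = 0.0522 and 0.0713), while leaving out any 1 array kept F2rl2 between 0.48 and 0.68 and P2rx1 between 0.35 and 0.41. Cd36 (-0.26), P2ry12 (-0.15), the ADP receptor of platelets, and Tbxa2r (-0.07), the thromboxane receptor, lay below 0 without a call (adjusted p at least 0.0982). The calls numbered 3 without OPN replicate 2, 4 without OPN replicate 3 and 5 without OPN replicate 4 or PT replicate 2. Over all rows, calls higher on OPN fell too, from 1475 to 982 without OPN replicate 2 and 928 without OPN replicate 3.

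Other proteins of platelet granules, and the machinery that builds granules, were counted beside all named genes, of which 7.62% rose. Of 15 measured, 8 rose and 0 fell (unadjusted, 8 and 0), with a median of 0.39. Angpt1 (1.48), a growth factor for vessels, and Thbs1 (1.32), the matrix protein thrombospondin, led them, and both are also made by stromal cells. F13a1 (0.86), a clotting transglutaminase that macrophages also make, F5 (0.55), a clotting cofactor, and Rab27b (0.52), a GTPase of dense granule release, were next by p. Clu (0.64) and Pdgfa (0.58), named here after their values were seen, rose by more than F5 and Rab27b. Each array of OPN lay above each array of PT in 8 of the 15 genes, against 16.3% of all rows. Angpt1, Thbs1, F13a1, F5 and Rab27b, which were picked by smallest p, were among them.

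Among 27 genes of platelet signalling and cytoskeleton, 10 rose (against 7.62% of all named genes) and none fell (median 0.26, unadjusted 16 and 1). Besides F13a1 and Gucy1a1 (0.77), the named genes were Plek (0.85), a kinase substrate of platelets and leukocytes, and the actin-related genes Myl9 (0.62) and Pdlim1 (0.54). Syk (-0.18), Tbxas1 (-0.20) and Fyb1 (-0.11) lay below 0 without a call. The calls numbered 5 without OPN replicate 2, without OPN replicate 3 or without PT replicate 2. Tubb1, Gp6, Clec1b and Mmrn1, which are more restricted to megakaryocytes, had no row carrying their symbol alone and were not analysed here. The receptor gene Mpig6b, named after its value was seen, had a row and was not called (log2 difference -0.005, adjusted p = 0.991 in limma's test). In the receptor list 16 genes lay above 0 and 4 below.

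The remaining megakaryocyte transcription factor genes were mostly not called. Of 19 measured, 3 rose (against 7.62% of all named genes), 0 fell and 16 were not called, with a median of -0.03 (unadjusted, 4 and 1). Ets1 (0.65), Cbfb (0.50) and Meis1 (0.36) were the 3. Without OPN replicate 2 or 3 Meis1 was not called (adjusted p = 0.0714 and 0.0670), with log2 differences of 0.35 and 0.36 close to the full value. Genes singled out after their values were seen, because they are the best known regulators of the lineage, did not pass. Gata1 had a log2 difference of -0.15 (95% interval -0.39 to 0.10), Tal1 -0.32 (-0.51 to -0.13), Fli1 0.26 (0.10 to 0.42), Runx1 0.11 (-0.04 to 0.26) and Zfpm1 -0.11 (-0.26 to 0.04). Tal1 was called lower in 5 of the 13 alternative settings, equal array medians and quantile normalisation among them (adjusted p = 0.0381 and 0.0134). Fli1 was called higher with an offset of 64, with dim rows removed and with the trended prior (adjusted p = 0.0473, 0.0211 and 0.0210), and not under either rescaling (log2 differences 0.19 and 0.18). Over the 4 lists together, 28 of 80 measured genes rose and 0 fell, and 16 or 17 were called without OPN replicate 2 or 3.

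**Figure D3:**
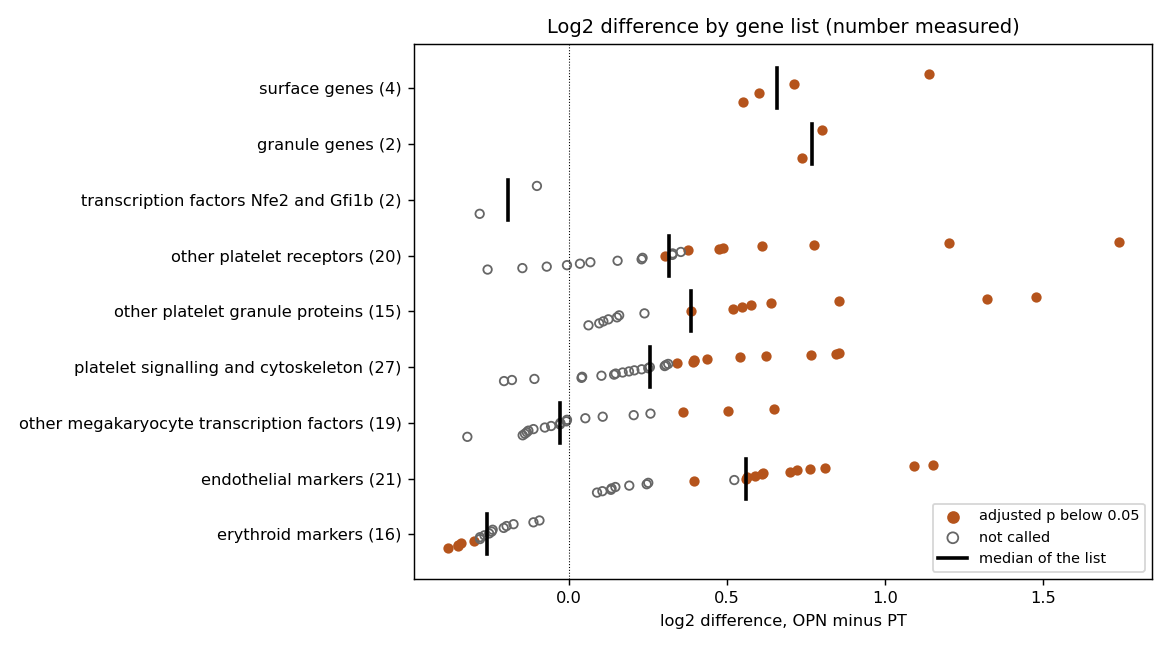
Log2 difference, OPN minus PT, of every measured gene in each list, with the number measured in brackets. Filled points have an adjusted p below 0.05, open points do not, and the black bar is the list's median. The surface and granule genes lie above 0.5, and Nfe2 and Gfi1b lie below 0. The other transcription factors centre near 0, endothelial markers lie above 0 and erythroid markers below it.

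Markers of other cells that express some of the same genes moved on the same arrays. Endothelium also makes P-selectin. Of 21 measured endothelial markers 12 rose on OPN, against 7.62% of all named genes, and 0 fell. Unadjusted, the counts were 16 and 0, and the median was 0.56. The markers summed to 5876 to 6135 units on OPN and 4091 to 4373 on PT, and their lowest signal was 54.1 units. Kdr (1.15) and Tek (1.09), receptors of vessel growth, had log2 differences of the size of Selp (1.14), and Ramp2 (0.81), Plvap (0.61) and Flt1 (0.61) were lower than that. Sele (0.76), the endothelial selectin gene, and Cd34 (0.64), expressed by endothelium and early blood cells, also rose. Both were named after their values were seen. Of the 21 endothelial markers 9 were not called, the lowest being Icam2 (0.09). Their part in the Selp difference was not tested.

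Red cell precursors express Gfi1b, Nfe2 and several of the factors above. Of 16 measured erythroid markers, 0 rose and 5 fell on OPN, while 1.12% of all named genes fell. The median of the markers was -0.26, and all 16 lay below 0 (14 at an unadjusted p below 0.05 in limma's test). Between 5046 and 5183 of all 29215 rows had such a p, both directions together. The markers summed to 58077 to 61439 units on OPN and 66231 to 74368 on PT, with a lowest signal of 625 units. The 5 were Ank1 (-0.38), Rhd (-0.35), Epb42 (-0.35), Sptb (-0.34) and Rhag (-0.30), which encode parts of the red cell membrane, beside -0.28 for Gfi1b. Erythroid calls numbered 10 with dim rows removed and 9 with the trended prior, 1 without OPN replicate 3, and 0 without OPN replicate 2 or 4 or PT replicate 2 or 4. Calls of lower rows over the whole table moved the same way. They numbered 225 in the main fit, 554 of 14606 with dim rows removed, 516 of 29215 with the trended prior and 95 to 181 with 1 array left out. The log2 differences of the 5 genes moved little when an array was left out, for example -0.44 to -0.35 for Ank1 and -0.38 to -0.33 for Rhd. Their part in the values of Gfi1b and Nfe2 was not tested.

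Granulocyte precursors also express Nfe2. Their markers summed to 17377 to 19535 units on OPN and 12035, 13851 and 19031 units on PT replicates 1, 2 and 4, so that within PT the array with the highest Nfe2 signal also had the highest granulocyte sum and the highest erythroid sum. Over all arrays the highest granulocyte sum, 19535 units, was on OPN replicate 3, which had the lowest Nfe2 signal. None of the 14 was called (unadjusted, 5 higher and 0 lower), whereas 6 were called higher without PT replicate 4. Of all 29215 rows, 928 to 1357 were called higher when 1 array was left out. Between 5046 and 5183 rows had an unadjusted p below 0.05 in limma's test on all arrays, both directions together. Of 13 mast cell and basophil markers 0 were called (unadjusted, 2 higher and 0 lower), with sums of 6660 to 7026 units on OPN and 5996 to 7601 on PT. Most of these sums came from Prg2 alone, with 4288.6 to 4715.9 units on OPN and 3727.2 to 5358.4 on PT. The sums therefore say little about the other markers of that list. Among 7 blood stem and progenitor markers Cd34 and Meis1 rose, against 7.62% of all named genes. The other 5 were not called, and 3 lay below 0 (list median 0.15). The part of these cells in the values was not tested.

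**Figure D4:**
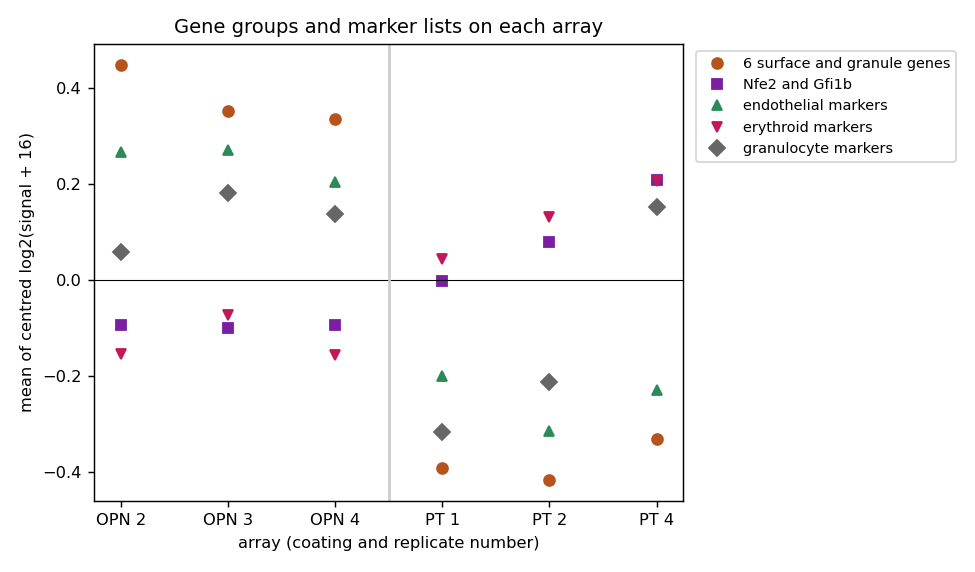
Mean of centred log2(signal + 16) on each array for the 6 surface and granule genes, for Nfe2 and Gfi1b, and for 3 marker lists, with the OPN arrays on the left. The surface and granule genes lie between 0.34 and 0.45 on OPN and between -0.42 and -0.33 on PT, endothelial markers lie on the same side of 0 as them, and erythroid markers lie on the side of Nfe2 and Gfi1b except on PT replicate 1, where those average 0.00.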

How the data were processed

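RNA of 6 samples, 3 OPN-adherent and 3 PT-adherent, was labelled from 300 ng of total RNA per the labels' protocols. The deposited table gives 1 linear intensity per probe set and array, made with Affymetrix Expression Console and PLIER per the submitters' processing notes. Their versions, the background correction, the scaling and the build are not stated in these sources. The scale was read as linear because signals reach 31000 units. Of 29215 rows, 15310 carried 1 gene symbol, 323 several and 13582 none in the platform annotation, and only the first kind was named. A gene with several rows was represented by its brightest row on average. Entrez identifiers of the 8 genes matched GRCr8, whose table gave neighbours and promoters.

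Values were transformed as log2(intensity + 16) and fitted row by row with a term for the coating, using limma 3.58.1 (lmFit, eBayes) under R 4.3.3 on all rows, with Benjamini-Hochberg adjustment over all of them. Both groups have replicates 2 and 4, which no label ties to a shared preparation, and the fit has no block. The genes, lists and motifs were chosen with earlier results of these data known, so lists are described by counts and medians. All 8 genes are named. In other lists, up to 5 called genes and up to 3 of opposite sign to the list's median were named by smallest p, and lists of other cells beyond the endothelial and erythroid ones are given as counts. Some further genes were named after their values were seen. In arrays simulated for this comparison over 29215 rows, the test recovered 64.2% of 67 rows moved by 0.5 (log2), 98.5% of those moved by 1 and 100% of those moved by 2, with 14 false calls. The simulation moved far fewer rows than were called here and gave each array independent noise. Its shares therefore need not hold for the data. Alternatives changed the offset, a filter on dim rows, the scaling, the eBayes prior and the replicate block, and left out each array in turn. The number of arrays limits the precision.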

Additional observations from a re-analysis of the deposited data

How the results depend on the processing

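Selp, Gp1ba, Pf4 and Ppbp were called higher under all 13 alternatives, and Gp9 and Gp5 under 12. With the replicate number as a block, which leaves few residual degrees of freedom, Gp9 (log2 difference 0.47, adjusted p = 0.11) and Gp5 (0.61, adjusted p = 0.0947) were not called. Deviations of the same-numbered arrays from their group means correlated at -0.08 (number 2) and 0.07 (number 4), against -0.11 to 0.18 for differently numbered arrays. With so few arrays these values cannot show whether the samples are paired. The main fit has no block because no label ties the numbers to a shared preparation. Under the block 618 rows were higher and 48 lower, against 1475 and 225, and 8 of the 80 other megakaryocyte genes were higher and 7 markers of other cells lower, against 28 and 14. Gfi1b was called lower in 6 of 13 alternatives, and this was the 1 call among the 2 transcription factor genes. Its values were -0.27 with an offset of 64, -0.28 with dim rows removed and with a trended, robust prior, -0.35 with equal array medians, and -0.30 with quantile normalisation. Leaving out 1 array at a time gave -0.32 to -0.26, with adjusted p between 0.0486 and 0.199, and 0 or 1 calls. With the offset of 64, dim rows removed, equal medians, quantile normalisation and the trended prior, 2 other megakaryocyte genes, Cd36 and Tal1, were called lower each time (Fli1 was called higher with the first 2 and the last), and the rows called lower numbered 382, 554, 560, 745 and 516 in that order. Calls in the higher direction made up 86.8% as deposited, 74.8% with dim rows removed, 68.1% with equal medians and 64.6% with quantile normalisation. The gap between the surface and granule genes and the transcription factors was 0.86 with an offset of 64. With 1 array left out, rows called higher ranged from 928 to 1357 and lower from 95 to 181, other megakaryocyte genes called higher from 16 to 26 and markers of other cells called lower from 8 to 14. The alternative of averaging a gene's rows was not run, since each of the 8 genes has 1 row. Without detection calls, the share of background in dim rows is unknown.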
